A study of Oryctolagus cuniculus with 4 samples.

Results

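RGS1, RGS4 and RGS5 are regulators of G protein signalling, and their messenger RNA was followed through the cell types of normal and injured rabbit bladder mucosa. They were found by symbol, as RGS1 (ENSOCUG00000012873), RGS4 (ENSOCUG00000005204) and RGS5 (ENSOCUG00000001169), and are 3 of the 18475 genes and 3 of the 13 RGS genes in the count tables. In RefSeq's rabbit annotation (mOryCun1.1), which was used here only for the order of genes, RGS4 and RGS5 lie next to each other with 0 coding genes between them. RGS1 lies on another chromosome, between RGS21 and RGS13.

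RGS proteins act on the alpha subunit of heterotrimeric G proteins. When a receptor is bound by its ligand, the alpha subunit takes up GTP and signals until it has split that GTP, and RGS proteins speed up the splitting, so that the signal ends sooner. RGS1 is known from leukocytes, where it dampens the response to chemokines. RGS5 is a widely used marker of pericytes, the contractile cells wrapped around small vessels, and RGS4 and RGS5 both act on the Gi and Gq alpha subunits through which endothelin and angiotensin II make such cells contract. The RGS4 and RGS5 proteins are degraded by the N-degron pathway, so that their amount need not follow their messenger RNA, which alone was measured here.

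Droplet-based single-cell RNA sequencing was performed on the bladder mucosa of adult New Zealand rabbits, 2 injured (Injury_1 and Injury_2) and 2 normal (Normal_1 and Normal_2), with 1 library per sample. In the injured rabbits a focal piece of the posterior bladder wall's mucosa had been resected in its full thickness, and the tissue came from day 10 of healing, while the normal rabbits were at homeostasis. A count is a unique molecular identifier (UMI), that is 1 captured RNA molecule. The files held 46863011 and 46395632 UMIs for Injury_1 and Injury_2 and 28745017 and 47881609 for Normal_1 and Normal_2, and 21945 of 25659 barcodes stayed within the study's limits on UMIs, genes and mitochondrial share (6081, 5529, 4308 and 6027 cells). The samples are labelled urothelium, yet 6.98% of the kept cells (1532) were epithelial-like, 40.9% were fibroblast-like and 24.4% endothelial-like, so that the suspension held the whole mucosa with its vessels. A total of 102 kept barcodes occurred in more than 1 library. Cells fell into 25 clusters, of which 22 were named by fixed markers as 12 classes (21288 cells). No RGS gene entered the clustering or the naming.

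The 3 genes were each carried by few classes, and RGS1 was scarce where RGS4 and RGS5 were high. A level is given as CPM, the summed UMI count of a gene in a class and sample scaled to a total of 1000000 UMIs. Of the kept UMIs of RGS1, 95.7% lay in the 5 immune classes. Of those of RGS4, 85.9% lay in pericyte-like and smooth muscle-like cells, which held 89.6% of those of RGS5 and 0.404% of those of RGS1. Across 41 class and sample sums the levels of RGS4 and RGS5 on the log2 scale had a Pearson correlation of 0.93, and those of RGS1 and RGS5 one of -0.32. These sums share libraries and classes, so that the correlations only describe them.

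**Figure D1:**
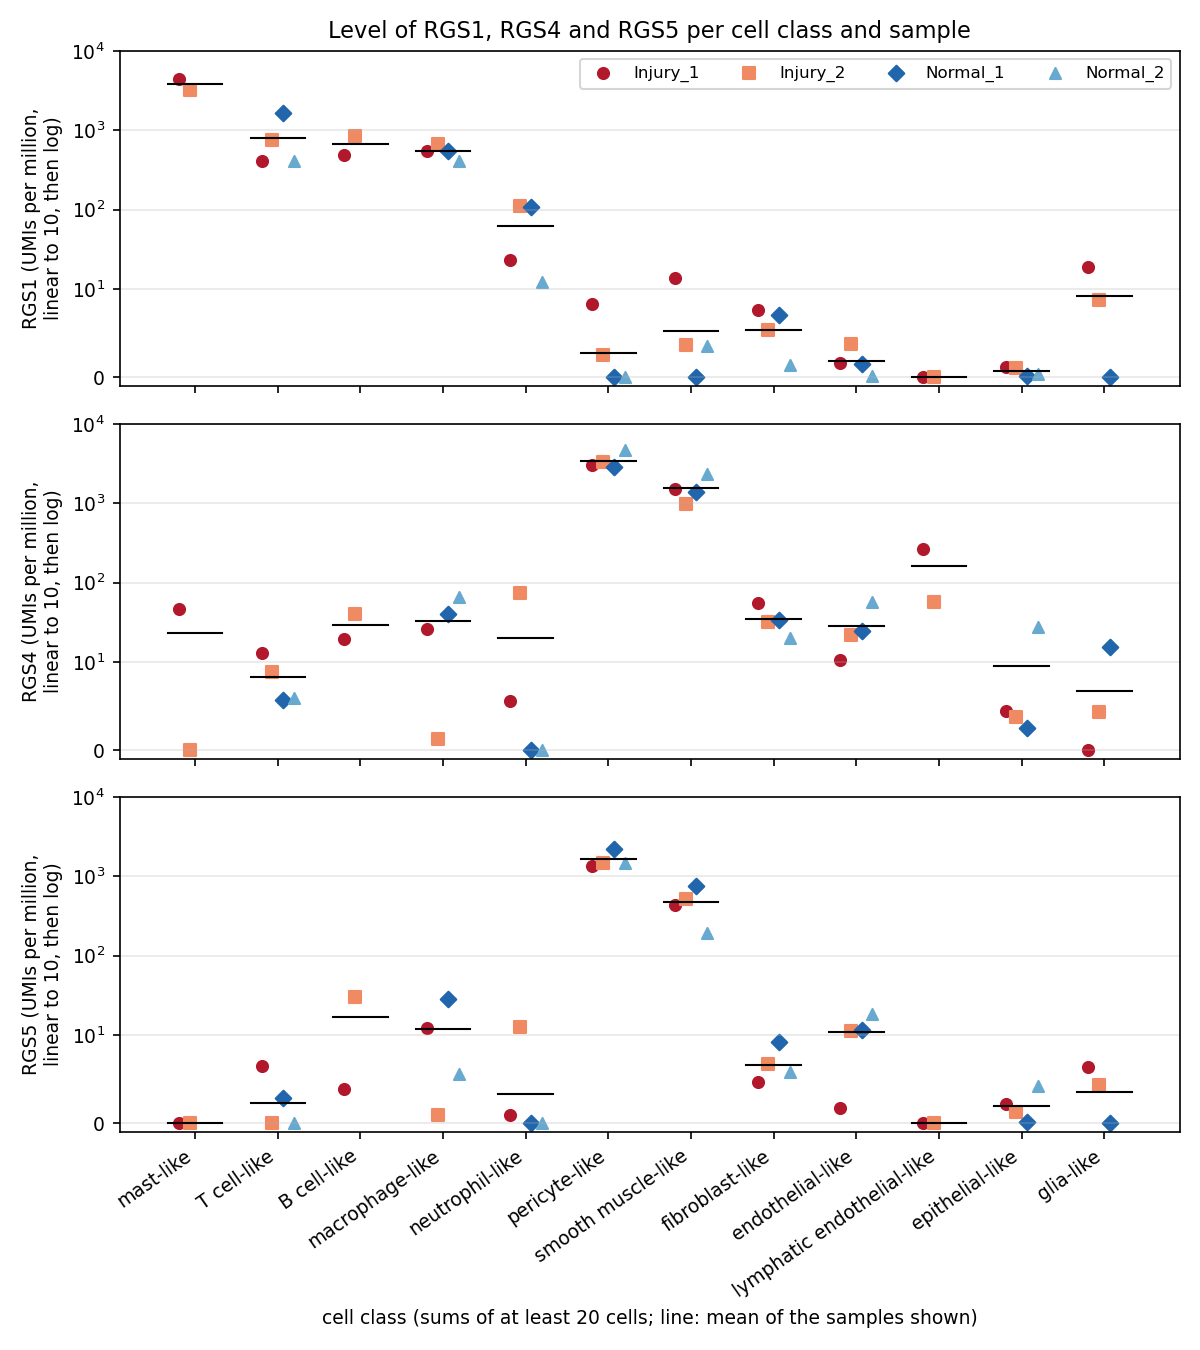
Level of RGS1, RGS4 and RGS5 (CPM, on an axis that is linear to 10 and logarithmic above) in each class, with 1 point per sample wherever 20 or more cells of the class were present, and a line for the mean of the samples shown. RGS1 is high in mast cell-like, T cell-like, B cell-like and macrophage-like cells, while RGS4 and RGS5 are high in pericyte-like and smooth muscle-like cells in all 4 samples.

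RGS4 was highest in pericyte-like cells in all 4 samples. Its level there was 2995 and 3262 CPM in Injury_1 and Injury_2 and 2841 and 4659 CPM in Normal_1 and Normal_2, a mean of 3440 ± 831 (SD, n = 4). Normal_2 stood above the other 3 samples, and the injured samples lay between the normal ones. These cells (434, 421, 212 and 245 per sample) formed a single cluster whose leading genes included HIGD1B, a small mitochondrial protein, the potassium channel subunit ABCC9 and the cytochrome c oxidase subunit COX4I2, all of them pericyte markers fixed for the naming. The leading genes also included IBSP, a bone matrix protein, and CCL19, a chemokine.

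RGS5 was highest in the same cells. Its level was 1338 and 1467 CPM in Injury_1 and Injury_2 and 2208 and 1485 CPM in Normal_1 and Normal_2, a mean of 1624 ± 395 (SD, n = 4). Here Normal_1 was the high sample, and both injured samples lay just below Normal_2.

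Smooth muscle-like cells came next for both genes. RGS4 stood at 1506, 966, 1394 and 2363 CPM in Injury_1, Injury_2, Normal_1 and Normal_2 (1557 ± 585, SD, n = 4), and RGS5 at 435, 519, 761 and 194 CPM (477 ± 234). Within each sample the pericyte-like level was the higher of the pair, by 1.18 ± 0.38 (SD, n = 4) on the log2(CPM + 10) scale for RGS4 and by 1.87 ± 0.67 for RGS5. Both differences were seen in 4 of 4 samples, and the two-sided exact sign-flip permutation test gave p = 0.13 for each, the smallest that 4 samples allow. The orders of the 12 classes hold 33 such neighbouring pairs over the 3 genes, and all adjusted p-values of these exact tests were 1.0.

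The smooth muscle-like class was made of a pair of clusters that differed in both genes. Cluster 12 (625 cells), led by RERGL, SNCG and MYH11, the smooth muscle myosin heavy chain, held RGS4 at 1991 and 1299 CPM in Injury_1 and Injury_2 and 1483 and 3520 CPM in Normal_1 and Normal_2, and RGS5 at 570, 639, 813 and 296 CPM. Cluster 19 (142 cells), led by ACTG2, the enteric smooth muscle actin, held RGS4 at 77.2, 137, 137 and 397 CPM and RGS5 at 40.9, 220, 17.2 and 18.9 CPM, so that RGS4 was lower there in every sample, and RGS5 as well. Cluster 12 also carried pericyte markers. HIGD1B stood at 426, 424, 448 and 209 CPM in it, against 719, 780, 840 and 983 CPM in the pericyte-like cells, and COX4I2 was among its leading genes. In every sample, and for both genes, the level of cluster 12 lay between those of the pericyte-like cells and of cluster 19.

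The ratio of RGS4 to RGS5 UMIs differed between rabbits, and it did so in the same order in both kinds of cell at its ends. In pericyte-like cells it was 2.24 and 2.22 in Injury_1 and Injury_2 and 1.29 and 3.14 in Normal_1 and Normal_2. In cluster 12 it was 3.50, 2.03, 1.82 and 11.9. Normal_1 gave the lowest and Normal_2 the highest ratio in each, so that the 2 normal samples stood further apart than either stood from the injured ones. Since capture at the 3′ end differs between genes, such a ratio is compared between samples only.

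**Figure D2:**
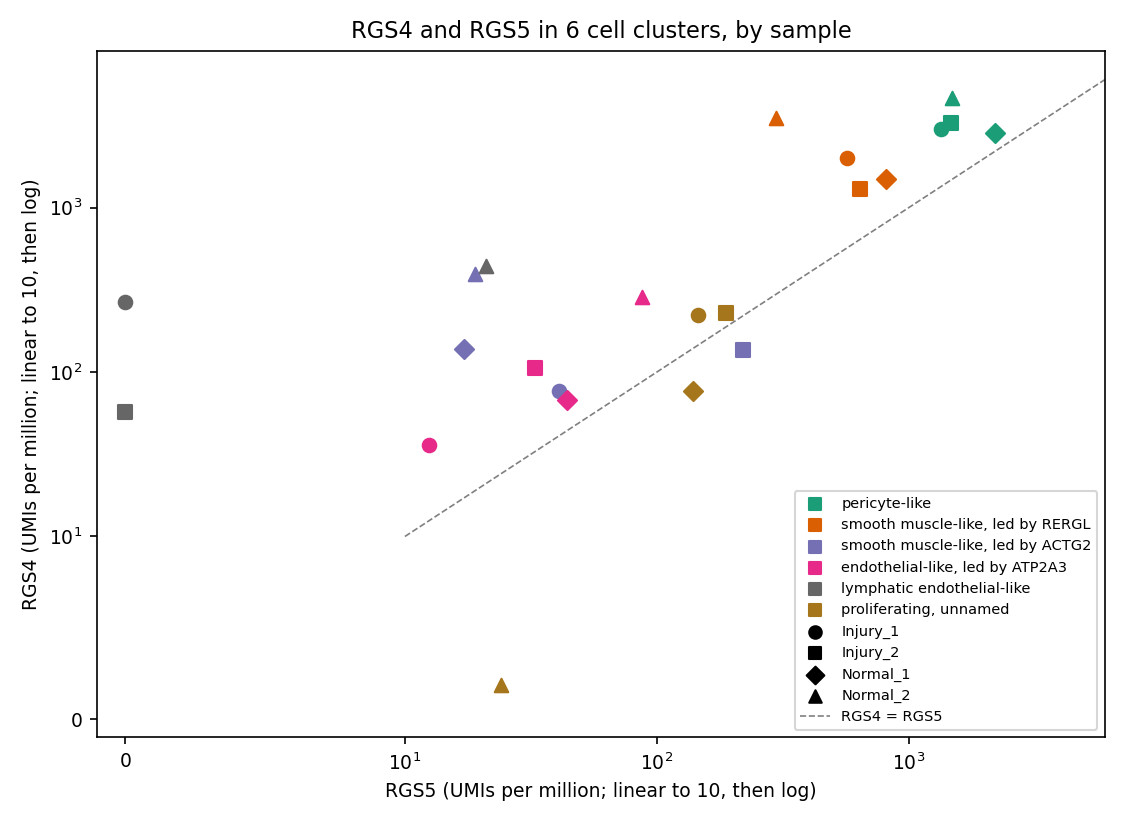
RGS4 against RGS5 (CPM, on axes linear to 10 and logarithmic above) in 6 clusters (colours), with 1 point per sample (shapes) and a dashed line where both levels are equal. The pericyte-like points lie at the top right with at least 2841 CPM of RGS4, the smooth muscle-like points led by RERGL to their left, with Normal_2 at 3520 CPM of RGS4 and 296 of RGS5, and the lymphatic points of the injured samples at 0 on the RGS5 axis.

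Most pericyte-like cells carried both messengers. At least 1 UMI of each was found in 81.8% and 78.9% of the pericyte-like cells of Injury_1 and Injury_2, and in 90.1% and 83.3% of those of Normal_1 and Normal_2. Over all samples 25 of 1312 cells had neither, 95 had RGS4 alone and 110 had RGS5 alone. In cluster 12, 280 of 625 cells had both, 224 had RGS4 alone and 45 had RGS5 alone. RGS5 had fewer UMIs than RGS4 in these cells, so that the counts of cells with 1 gene alone are not compared between the genes. In cluster 19, 105 of 142 cells had neither. Within the pericyte-like cells of a sample the UMI counts of the 2 genes ran together only weakly, with Spearman correlations across cells from -0.05 in Injury_1 to 0.19 in Injury_2, which in sparse counts is a description only.

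The molecules were spread unevenly over the pericyte-like cells. The median cell held 8, 7, 6 and 12 UMIs of RGS4 in Injury_1, Injury_2, Normal_1 and Normal_2, and the highest cell 100, 120, 98 and 154. The 10% of cells with the most held 38.4%, 40.9%, 36.8% and 39.2% of the RGS4 UMIs. For RGS5 the median cell held 5, 5, 6 and 7 UMIs, the highest 37, 31, 49 and 27, and the top 10% of cells 29.8%, 30.6%, 29.0% and 24.1%.

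The share of cells with a UMI was compared after thinning each cell to 1000 UMIs, since depth differed between samples and classes. RGS4 was then found in 72.4% and 68.7% of the injured pericyte-like cells and in 77.8% and 75.7% of the normal ones, and RGS5 in 66.4% and 65.6% against 80.1% and 69.4%. The mean differences were -6.15 and -8.76 percentage points, and the two-sided exact permutation test gave p = 0.33 for each, the smallest that 2 against 2 allows (adjusted p = 1.0 over 6 such tests). Thinned to 2000 UMIs, the RGS4 shares overlapped between the groups, at 83.9% and 79.6% against 88.7% and 83.7% (exact permutation p = 0.667). Without thinning, the RGS4 shares were 90.3%, 87.6%, 93.4% and 89.0%, and they overlapped between the groups. How many of all genes have shares of cells without overlap between the groups, thinned or not, was not tested. The unthinned RGS5 shares were 90.3%, 88.1%, 96.2% and 91.8%, without overlap between the groups. Their 95% Wilson intervals, which cover counting error only and not the difference between rabbits, ran from 84.2% to 90.5% for the lowest RGS4 share (Injury_2) and from 92.7% to 98.1% for the highest RGS5 share (Normal_1). In smooth muscle-like cells the thinned shares were 49.9%, 40.6%, 50.04% and 47.1% for RGS4 and 27.1%, 32.6%, 35.3% and 13.5% for RGS5, overlapping between the groups. Epithelial-like cells, which should lack both genes, gave at most 1.14% for RGS4 and 0.272% for RGS5 at the same depth. Their median depth was 11931.5 to 19902 UMIs, and that of the pericyte-like cells 3304 to 4662.

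Outside the contractile classes both genes were found at lower levels. Lymphatic endothelial-like cells had RGS4 at 267 CPM in Injury_1 (28 cells), 56.8 in Injury_2 (52 cells) and 440 in Normal_2 (9 cells), and Normal_1 had no such cell. RGS4 was found in 24 of the 89 cells and RGS5 in 1. Of the 24 cells, 4.17% carried a UMI of the pericyte markers HIGD1B or ABCC9, and 33.3% had a doublet score in the top 5% of their sample, against 9.23% of those without RGS4. In fibroblast-like cells RGS4 stood at 54.7, 31.9, 33.3 and 19.9 CPM, and 364 of the 424 cells that had it lacked RGS5. HIGD1B or ABCC9 was found in 15.6% of the fibroblast-like cells with RGS4, in 43.0% of those with RGS5 and in 1.22% of those without RGS4. The part of free RNA and of doublets in these low levels was not tested.

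Among the 3 blood endothelial-like clusters, cluster 10, led by ATP2A3, a calcium pump, and BMX, a tyrosine kinase, had the highest mean level of both genes. RGS4 stood there at 36.1, 105, 67.8 and 287 CPM in Injury_1, Injury_2, Normal_1 and Normal_2, and RGS5 at 12.4, 32.8, 43.8 and 87.2 CPM. HIGD1B or ABCC9 was found in 66.2% of its cells with RGS4 and in 85.4% of those with RGS5, against 1.52% and 1.76% of those without, and 40.0% and 52.1% had a doublet score in the top 5%. Levels in the other named classes were low, and RGS4 stood at 26.3, 1.23, 39.7 and 65.1 CPM in macrophage-like cells.

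RGS1 was a gene of the immune classes. These held 95.4% and 96.5% of its UMIs in Injury_1 and Injury_2 and 94.5% and 93.5% in Normal_1 and Normal_2. By number of molecules, macrophage-like cells held 47.7% of all RGS1 UMIs, T cell-like cells 31.6%, mast cell-like cells 8.22% and B cell-like cells 6.88%. This pooled order did not hold in every sample. In Normal_1 T cell-like cells held 51.8% and macrophage-like cells 30.5%. In Injury_2 B cell-like cells held 11.5% and mast cell-like cells 8.53%. By level the order was another. Mast cell-like cells were highest at 4446 CPM in Injury_1 (37 cells), 3231 in Injury_2 (44 cells), 5662 in Normal_1 (7 cells) and 2691 in Normal_2 (18 cells). The lowest of these values was above the highest of any other class, though only the injured samples had 20 or more mast cell-like cells. Over those 2 samples the level was higher than in T cell-like cells by 2.75 ± 0.92 (SD) on the log2(CPM + 10) scale, in 2 of 2 samples (exact sign-flip p = 0.5, the smallest possible).

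T cell-like, B cell-like and macrophage-like cells overlapped in their level of RGS1. T cell-like cells had 413, 748, 1657 and 409 CPM in Injury_1, Injury_2, Normal_1 and Normal_2 (807 ± 588, SD, n = 4), and Normal_1 stood far above the rest. B cell-like cells, a cluster that also holds the plasma cell genes JCHAIN and MZB1, had 483, 853, 839 and 736 CPM, the normal samples with 12 and 7 cells. Macrophage-like cells had the steadiest level, at 545, 670.0, 549 and 405 CPM (542 ± 108, SD, n = 4). They were lower than T cell-like cells by 0.34 on the log2(CPM + 10) scale over 4 samples and higher by 0.072 without Normal_1. At a clustering resolution of 0.3 the macrophage-like class was lower in 4 of 4 samples, by 0.76 (exact sign-flip p = 0.13, the smallest possible), but a cluster of 1016 cells in that class also had SERPINB2 and PLEK of neutrophil-like cluster 15 among its leading genes, so that the class was not the same. Neutrophil-like cells, known for fast chemokine responses, had 23.5, 109, 106 and 12.1 CPM, below macrophage-like cells in 4 of 4 samples by a mean of 3.26 ± 1.02 (SD) on the log2 scale (exact sign-flip p = 0.13, the smallest possible).

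Within these classes RGS1 differed between clusters. Macrophage-like cluster 11, led by the complement genes C1QA and C1QB and by CSF1R, the receptor of a macrophage growth factor, had 625, 870.2, 751 and 557 CPM (701 ± 139, SD, n = 4). Cluster 13, led by the antigen presentation genes HLA-DRA and CD74, had 333, 403, 451 and 269 CPM (364 ± 79.5), lower in each sample. T cell-like cluster 9, with the early activation and tissue residence marker CD69 among its leading genes, had 508, 829, 1787 and 443 CPM. Cluster 23, T cell-like cells that carry cell cycle genes, had 196 CPM in Injury_1 (70 cells) and 569.5 in Injury_2 (24 cells), with only 2 and 3 cells in the normal samples. Both lay below cluster 9 of the same sample.

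After thinning to 1000 UMIs, RGS1 was found in 28.7%, 34.7%, 47.3% and 26.9% of the T cell-like cells and in 28.8%, 34.4%, 31.8% and 26.7% of the macrophage-like cells, while epithelial-like cells gave at most 0.167%. Without thinning the shares were 56.6%, 56.9%, 65.0% and 52.3% of the T cell-like cells and 60.5%, 64.9%, 59.8% and 62.1% of the macrophage-like cells, and the widest 95% Wilson interval was that of the T cell-like cells of Normal_2, from 43.0% to 61.4%. The groups overlapped in both classes (exact permutation p = 1.0 and 0.667). RGS1 was concentrated in some cells. The 10% of cells with the most of it held 51.0%, 61.7%, 54.1% and 49.0% of its UMIs in T cell-like cells and 56.0%, 52.1%, 54.5% and 51.0% in macrophage-like cells.

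RGS1 outside the immune classes was found more often in cells that also carried PTPRC, the leukocyte surface phosphatase CD45. Of 8969 fibroblast-like cells 100 had RGS1, and 53.0% of these had a PTPRC UMI, against 0.913% of the others, while 45 of the 100 had a doublet score in the top 5%, against 3.75% of the others. In fibroblast-like cluster 1, led by FAM162B and the transcription factor TCF21, 56 cells had RGS1, and PTPRC was found in 76.8% of them. In endothelial-like cells PTPRC was found in 28.1% of the 32 cells with RGS1. Of these 32 cells 21.9% had a top doublet score, against 2.99% of those without RGS1. In epithelial-like cells PTPRC was found in 21.4% of the 14 cells with RGS1. Of these 14 cells 7.14% had a top doublet score, near the 6.85% of those without RGS1.

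The question put to these samples was how the cells of the mucosa differ between injury and homeostasis, and no level of the 3 genes within a class passed the test. The quasi-likelihood test of edgeR on UMI counts summed per sample and class, with Benjamini-Hochberg adjustment over all genes tested in the class, was run wherever every sample had at least 20 cells. There were 17 tests of the 3 genes in 8 classes. Of these, 0 were called by edgeR at an adjusted p under 0.05, 1 had an unadjusted p under 0.05, and 0 were called by DESeq2. Calls were few in most classes. Of all genes tested edgeR called 0.0% of 5532 in pericyte-like, 0.0% of 5048 in smooth muscle-like, 0.0221% of 4535 in T cell-like, 0.0% of 5477 in macrophage-like, 0.0% of 2579 in neutrophil-like, 0.0% of 7507 in endothelial-like, 0.0% of 8786 in fibroblast-like and 1.66% of 7046 in epithelial-like cells. At an unadjusted p under 0.05 there were 482, 259, 654, 770, 193, 508, 963 and 1441 genes, and DESeq2 called 46, 10, 74, 68, 3, 50, 259 and 485. The labels call the samples injured and normal and nothing pairs them, so that the p-values measure the spread between 2 samples on each side.

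Orders without overlap between the groups were common among all genes. Of the members tested in a class, 1 of 2 lay lower in both injured samples in pericyte-like cells (RGS5, beside 19.0% of all genes), 1 of 3 in macrophage-like cells (RGS4, beside 16.3%) and 2 of 3 in endothelial-like cells (RGS4 and RGS5, beside 13.4%), where 1 of 3 lay higher (RGS1, beside 23.2%). In smooth muscle-like, T cell-like, neutrophil-like, fibroblast-like and epithelial-like cells 0 did so in either direction. Of all genes tested, 15.3%, 14.4%, 15.1%, 27.9% and 15.5% lay lower in these 5 classes and 20.1%, 35.3%, 19.8%, 15.8% and 39.4% higher. In pericyte-like and macrophage-like cells 21.3% and 31.0% of genes lay higher in both injured samples, and 0 of the members did. Over all cells 19.7% of genes lay lower and 0 of the members.

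For RGS5 in pericyte-like cells, both injured samples (1338 and 1467 CPM) lay below both normal ones (2208 and 1485 CPM), with a log2 fold change of -0.39 ± 0.24 (SE) and an adjusted p of 0.717 in edgeR. The sign was negative under every alternative tried, including each sample left out, with values from -0.60 to -0.11. Of all genes tested in these cells, 19.0% had both injured samples below both normal ones, so that this order is common there. The pericyte markers HIGD1B and ABCC9 had it too. HIGD1B stood at 719 and 780 CPM in the injured and 840 and 983 CPM in the normal samples. ABCC9 stood at 400 and 422 CPM against 636 and 573 CPM. Of the fixed pericyte markers only HIGD1B and ABCC9 were compared by sample here, and whether these genes moved together was not tested.

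For RGS4 in pericyte-like cells the log2 fold change was -0.27 ± 0.27 (SE), with an edgeR adjusted p of 0.842. Its sign rested on Normal_2 and on the limit on mitochondrial share. Without Normal_2 the fold change was 0.19, and without Normal_1 it was -0.61. With all samples and a mitochondrial limit of 10% it was 0.37. In smooth muscle-like cells the log2 fold change of RGS4 was -0.65 ± 0.37 (SE) with an edgeR adjusted p of 0.933, and without Normal_1 it was -1.03 with an adjusted p of 0.0374. In smooth muscle-like cells the value of RGS5 was 0.02 ± 0.56 (SE) with an edgeR adjusted p of 0.998. It went to -0.62 without Normal_2 and to 1.21 without Normal_1. Each of these fits without Normal_1 leaves Normal_2 as the lone normal sample, taken to vary like the injured ones. The smooth muscle-like class mixes clusters 12 and 19, which differed in level. Cluster 19 held 29 of the 153 smooth muscle-like cells of Injury_1 and 36 of the 176 of Injury_2. In Normal_1 it held 14 of 223 and in Normal_2 63 of 215. The part of this make-up in the fold changes was not tested.

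**Figure D3:**
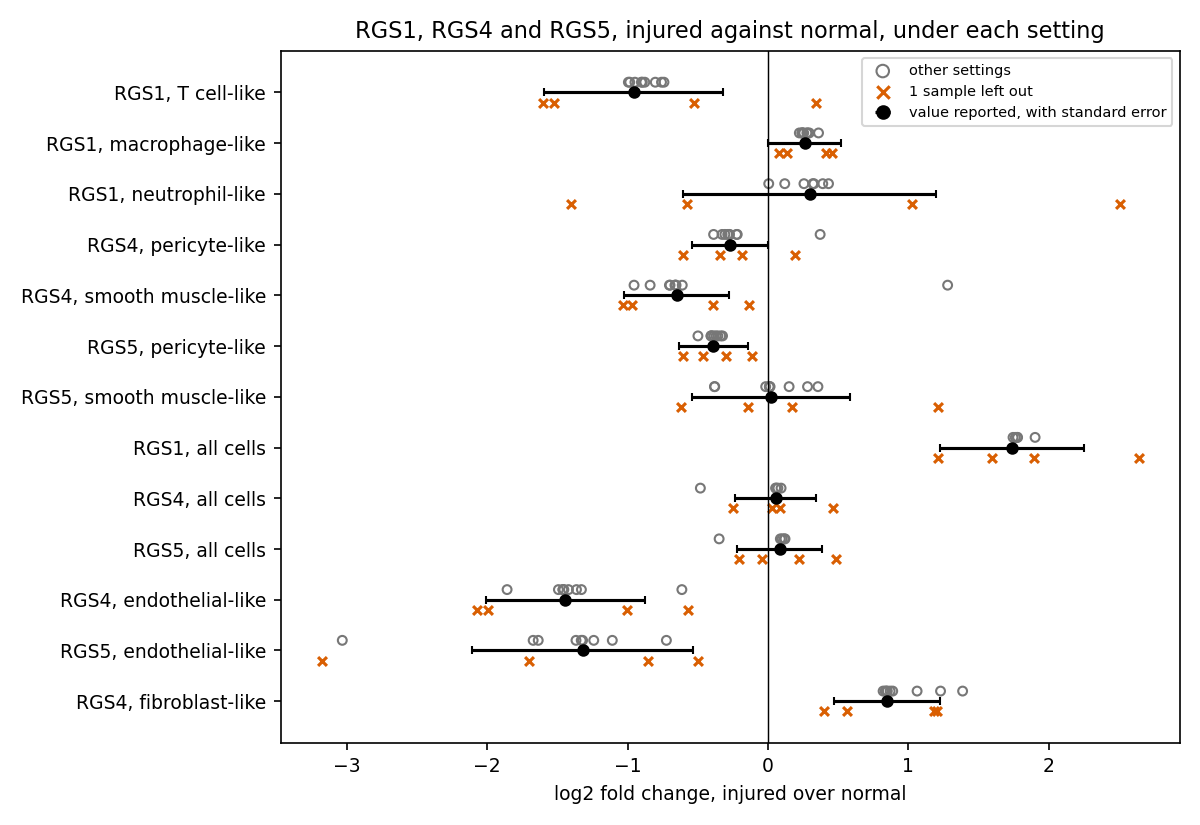
Log2 fold change of RGS1, RGS4 and RGS5 between injured and normal samples in the classes shown and over all cells, with bars of 1 SE from edgeR, crosses for the fits without 1 sample and open circles for the other alternatives. The crosses of RGS4 in pericyte-like cells, from -0.61 to 0.19, and of RGS5 in smooth muscle-like cells, from -0.62 to 1.21, fall on both sides of 0.

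Within the classes, the smallest unadjusted p was that of RGS4 in endothelial-like cells. It stood at 10.6 and 22.0 CPM in the injured samples and at 24.6 and 57.3 CPM in the normal ones, with a log2 fold change of -1.44 ± 0.56 (SE), an unadjusted p of 0.044 and an adjusted p of 0.727 in edgeR. RGS5 there had a log2 fold change of -1.32 ± 0.79 (SE) and an edgeR adjusted p of 0.845. With each sample left out, the value of RGS4 ran from -2.07 without Injury_2 to -0.57 without Normal_2, and that of RGS5 from -3.18 without Injury_2 to -0.50 without Injury_1. Without the top doublet scores they were -1.86 and -3.03, and with a mitochondrial limit of 10% -0.61 and -0.72. The pericyte marker ABCC9 stood at 2.49 and 8.19 CPM in the injured and 16.2 and 42.7 CPM in the normal samples in cluster 10, while HIGD1B there overlapped between the groups (31.1, 24.6, 25.8 and 49.0 CPM). In cluster 0, ABCC9 stood at 3.83, 7.61, 33.4 and 23.8 CPM, HIGD1B at 1.18, 1.09, 1.43 and 3.22, RGS4 at 5.31, 2.90, 2.62 and 11.1 and RGS5 at 0.885, 0.725, 2.38 and 5.504. In cluster 3, ABCC9 stood at 1.60, 2.27, 2.08 and 6.62 CPM, HIGD1B at 0.267, 13.6, 2.59 and 8.94, RGS4 at 9.89, 13.6, 29.8 and 37.7 and RGS5 at 0.267, 16.3, 8.04 and 9.93. Cluster 10 held 736 of the 1152 endothelial-like RGS4 UMIs. It made up 131 of the 1145 endothelial-like cells of Injury_1, 113 of 828 of Injury_2, 309 of 1782 of Normal_1 and 234 of 1597 of Normal_2. The part of pericyte RNA and of this make-up of clusters in the result was not tested. Both injured samples lay below both normal ones for each of the 2 genes, as for 13.4% of the genes tested in these cells. RGS1 was higher in both injured samples there, as were 23.2% of genes, at means of 2.71 and 0.854 CPM. In macrophage-like cells RGS4 was lower in both injured samples, as were 16.3% of genes, with a log2 fold change of -2.04 and an adjusted p of 0.415 in edgeR. Single cells carried much of it, as 42 of the 47 RGS4 UMIs of Normal_2 and 14 of the 25 of Normal_1 lay in 1 cell, and over all samples 10 cells held 81.6%. Of the macrophage-like cells with RGS4, 26.2% carried HIGD1B or ABCC9. In fibroblast-like cells RGS4 ran the other way, at 0.85 ± 0.38 (SE) with an adjusted p of 0.510 in edgeR. The value was 0.40 without Injury_1, 1.20 without Injury_2 and 1.39 without the top doublet scores. The fibroblast-like clusters differed. Cluster 5, led by COCH and TNFAIP6, an anti-inflammatory protein, had RGS4 at 99.2 and 69.5 CPM in the injured and 3.01 and 50.3 CPM in the normal samples, and clusters 1 and 6 were also higher in the injured samples on average (31.0 against 7.54 CPM and 3.41 against 2.42). Clusters 4 and 2 went the other way, at means of 23.8 against 57.3 CPM and 40.9 against 47.0. In cluster 5 only 113 of 1634 cells had RGS4, so that its low values rest on few molecules. How many of all genes differ so within single clusters was not tested.

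RGS1 in T cell-like cells had a log2 fold change of -0.96 ± 0.64 (SE) with an adjusted p of 0.531 in edgeR. This rested on the 1657 CPM of Normal_1, and without that sample the value was 0.34. In macrophage-like cells it was 0.26 ± 0.26 (SE), with an adjusted p of 0.694 in edgeR and a positive sign under every alternative tried (0.08 to 0.46). The class mixes clusters 11 and 13, which differed in level, and cluster 11 held 392 of the 532 cells of Injury_1, 271 of 442 of Injury_2, 51 of 112 of Normal_1 and 64 of 103 of Normal_2. Within cluster 11 the group means were 748 CPM for the injured and 654 for the normal samples, and within cluster 13 they were 368 and 360.01. In neutrophil-like cells it was 0.30 ± 0.90 (SE) with an adjusted p of 0.999 in edgeR, and it was 2.51 without Normal_1, -0.57 without Normal_2 and -1.40 without Injury_2. Of the 257 neutrophil-like cells of Injury_1, 143 lay in cluster 17, whose median UMI count was 0.104 of that of the kept cells of the same samples.

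In the whole suspension RGS1 was more abundant after injury, and the make-up of cells moved with it. Summed over all kept cells it stood at 89.3 and 106 CPM in Injury_1 and Injury_2 and 45.6 and 14.5 CPM in Normal_1 and Normal_2, a ratio of the group means of 3.25. The edgeR log2 fold change was 1.74 ± 0.51 (SE), with an unadjusted p of 0.0194 and an adjusted p of 0.320, while DESeq2 gave 1.76 and an adjusted p of 0.0184. Of 10475 genes tested over all cells, edgeR called 0.00955%, and 23.5% were higher in both injured samples. DESeq2 called 425 of the 10895 genes that it tested. The 5 immune classes held 18.5% and 15.1% of the UMIs of the injured samples and 4.74% and 3.27% of those of the normal ones. When the class levels of each sample were weighted by 1 common make-up of classes, RGS1 stood at 55.1, 73.3, 99.5 and 42.9 CPM, and the ratio of the group means was 0.901. In a sum over cells, more cells of a type and more RNA per cell cannot be told apart.

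Over the kept cells RGS4 and RGS5 were near equal between the groups in the whole suspension, and this depended on the limits on cells. RGS4 stood at 196, 196, 154 and 216 CPM in Injury_1, Injury_2, Normal_1 and Normal_2 (log2 fold change 0.05 ± 0.29, SE, edgeR adjusted p = 0.968), and RGS5 at 75.3, 86.8, 100.9 and 53.7 CPM (0.08 ± 0.30, adjusted p = 0.944). With all barcodes of the files the log2 fold changes were -0.48 and -0.35. Barcodes outside the limits held on average 33.3% of the RGS4 and 34.8% of the RGS5 UMIs of the normal samples and 4.57% and 7.004% of those of the injured ones. At a common make-up of classes RGS4 stood at 181, 169, 165 and 265 CPM and RGS5 at 65.7, 76.1, 112 and 67.8 CPM. The sign over all cells changed with the sample left out, from -0.25 without Normal_1 to 0.46 for RGS4 and from -0.21 without Normal_2 to 0.49 for RGS5. Smooth muscle-like cells held 14.9% and 12.4% of the RGS4 UMIs of the injured samples and 32.3% and 28.2% of those of the normal ones.

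**Figure D4:**
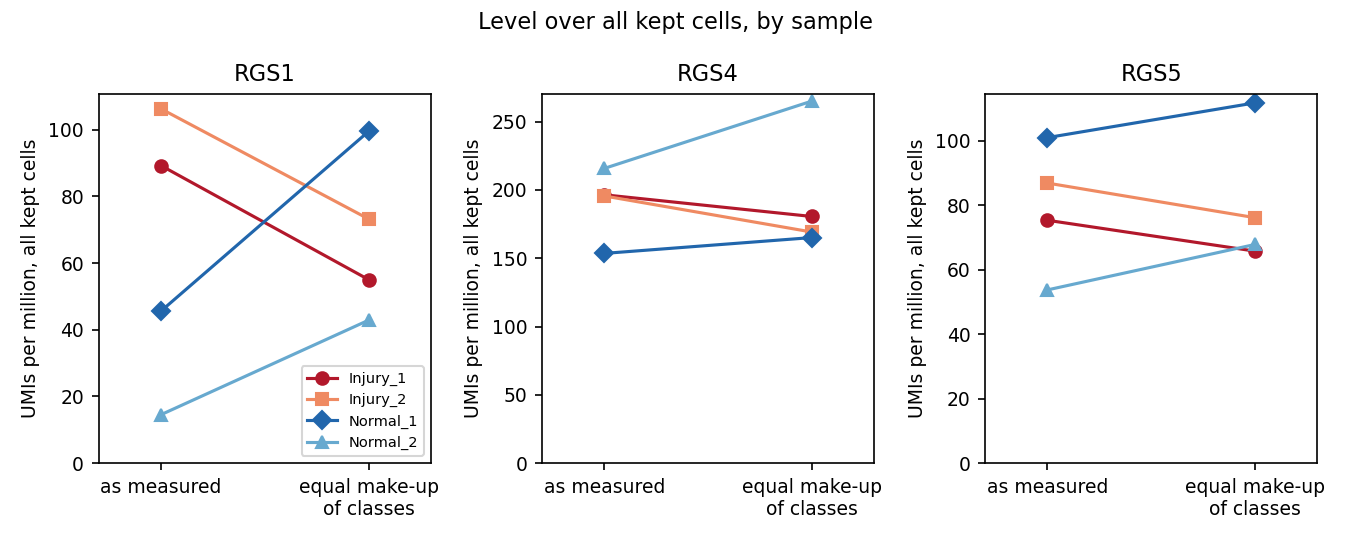
Level of each gene (CPM, axis from 0) over all kept cells as measured and at 1 common make-up of classes, with a line per sample. RGS1 is higher in both injured samples over all cells, at 89.3 and 106 CPM against 45.6 and 14.5, and no longer so at a common make-up.

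The limit on mitochondrial share bore on RGS4 and RGS5 more than on RGS1. Barcodes outside the limits held 4.95% and 5.85% of all UMIs in the injured samples and 13.7% and 7.35% in the normal ones. They held 6.27% and 2.87% of the RGS4 UMIs in the injured samples and 26.5% and 40.1% in the normal ones, and for RGS5 7.501% and 6.51% against 29.0% and 40.6%. The pericyte marker HIGD1B went the same way, at 6.39% and 9.19% against 34.1% and 36.0%. The pericyte marker ABCC9 stood at 10.7% and 9.11% against 15.5% and 35.6%. Its share in Normal_1 was near the 13.7% of all UMIs there. For RGS1 the shares were 3.12% and 3.43% against 6.22% and 6.39%. Nearly all of these barcodes were over the mitochondrial limit of 15%.

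When barcodes over that limit were given to their nearest class, a choice made after seeing these shares, pericyte-like cells rose from 434, 421, 212 and 245 to 506, 470, 275 and 412, and smooth muscle-like cells from 153, 176, 223 and 215 to 231, 249, 610 and 493. Every such barcode had to fall into a named class. Applied to the kept cells, the rule returned 93.9% of pericyte-like and 88.8% of smooth muscle-like cells to their own class. Those same cells had set the class profiles. The level of RGS4 in pericyte-like cells became 2946, 3134, 2742 and 4915 CPM and that of RGS5 1309, 1475, 2182.2 and 1662 CPM. The order of the samples stayed the same for both genes. In smooth muscle-like cells RGS4 became 1196, 797, 1264 and 2396 CPM. Injury_1 thereby fell below Normal_1, against 1506 and 1394 CPM in the kept cells. Both injured samples then lay below both normal ones. How many of all genes have this order without the limit was not tested. Among the kept smooth muscle-like cells 15.3% of the genes tested had it.

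Within pericyte-like cells the level of RGS4 differed between bands of mitochondrial share, in another direction in Normal_2 than in the injured samples. In cells of up to 10%, of 10 to 15% and of over 15%, RGS4 stood at 3296, 2232 and 2436 CPM in Injury_1, at 3450, 2903 and 1105 in Injury_2, at 2319, 3037 and 2186 in Normal_1, and at 3120, 5095 and 5397 in Normal_2. How many genes of the whole table differ in this way between bands was not tested. Smooth muscle-like cells had RGS4 at 2131, 1324, 812 and 652 CPM in the lowest band, 896, 763, 1462 and 2527 CPM in the middle one and 289, 255, 1141 and 2427 CPM over 15%. With a limit of 10% the edgeR log2 fold change of RGS4 accordingly was 0.37 in pericyte-like cells and 1.28 in smooth muscle-like cells, neither past the threshold (adjusted p = 0.741 and 0.666). RGS5 in pericyte-like cells of up to 10% stood at 1208, 1404, 2253 and 1273 CPM, of 10 to 15% at 1667, 1588, 2191 and 1544 CPM, and of over 15% at 1013, 1597, 2038 and 1996 CPM. In the lower bands, which make up the kept cells, its groups overlapped in each band. The low bands of the normal samples rest on few cells, 57 and 58 pericyte-like and 24 and 22 smooth muscle-like. The bands of over 15% rest on barcodes given to their nearest class.

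**Figure D5:**
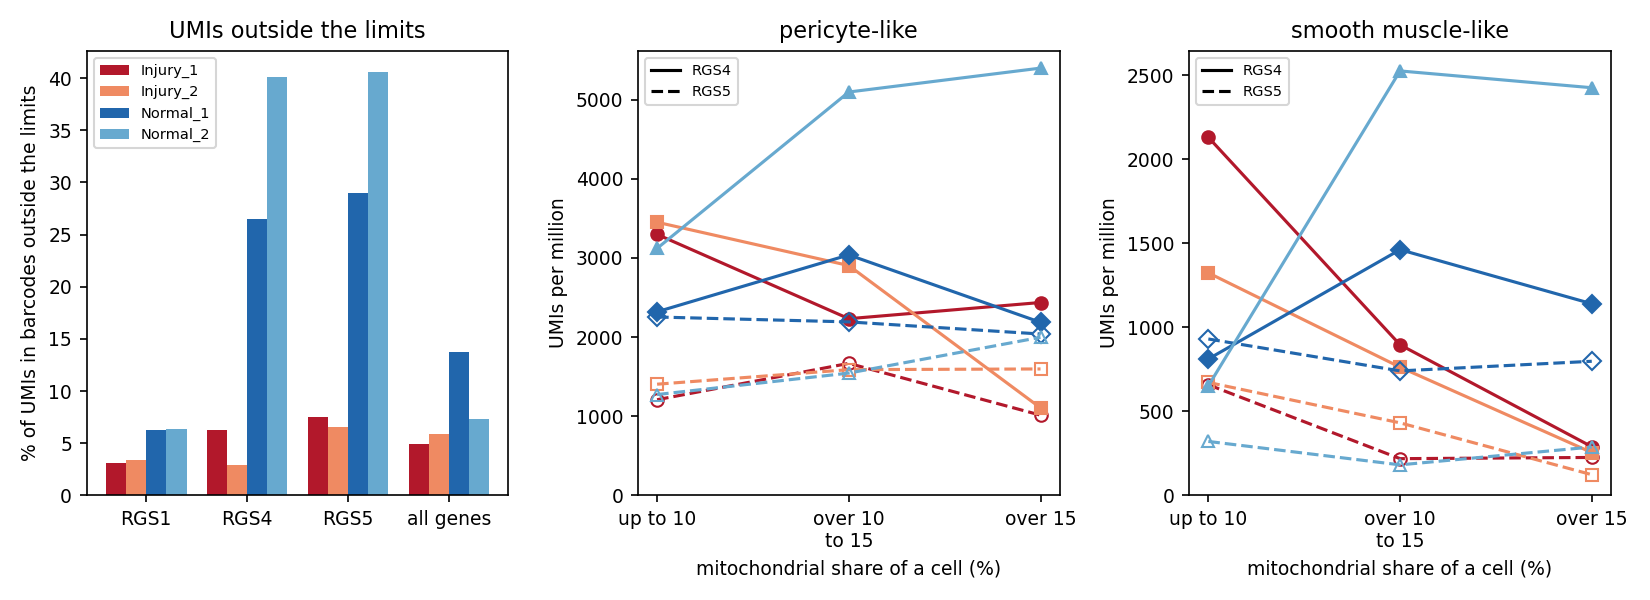
Left, percent of the UMIs of each gene and of all genes that lay in barcodes outside the limits, with a bar per sample, and centre and right, level of RGS4 (solid lines) and RGS5 (dashed lines) in CPM by band of mitochondrial share in pericyte-like and smooth muscle-like cells, with a line per sample. In pericyte-like cells RGS4 goes from 3120 to 5397 CPM across the bands in Normal_2 and from 3450 to 1105 CPM in Injury_2.

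The partners of RGS proteins were described through 5 lists of genes. Of 18 other RGS genes 10 were in the files, and 1 of these reached 50 CPM in a class, RGS10, an RGS protein of myeloid cells and platelets, at 152 ± 41.5 CPM (SD, n = 4) in macrophage-like and 70.8 ± 30.9 in mast cell-like cells (n = 2, as for all means of that class). Of 13 alpha subunit genes 8 were in the files and 4 reached 50 CPM. GNAI1, an inhibitory alpha subunit, was highest in pericyte-like cells at 79.5 ± 10.9 CPM, where RGS4 and RGS5 were highest too. GNAI2 stood at 194 ± 32.1 CPM in pericyte-like, 423 ± 16.9 in macrophage-like and 322 ± 75.2 in T cell-like cells, and was highest in endothelial-like cells at 515 CPM. GNAI3 was highest in mast cell-like cells at 157 ± 61.1 CPM, as was GNA13 at 103 ± 29.6. GNAQ, the alpha subunit that activates phospholipase C, stood at 21.9 ± 5.85 CPM in pericyte-like cells and was highest in endothelial-like cells at 39.6 CPM. GNAO1 reached 13.96 CPM in smooth muscle-like cells, GNA14 7.03 CPM in fibroblast-like cells and GNAL 0.347 CPM in pericyte-like cells.

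Of 24 receptors known from contractile cells 18 were in the files and 3 reached 50 CPM. In pericyte-like cells the highest receptors of either list were the endothelin receptors EDNRB at 174 ± 78.9 CPM (SD, n = 4) and EDNRA at 125 ± 17.0, the angiotensin II receptor AGTR1 at 85.0 ± 2.77 and the prostaglandin receptor PTGER4 at 79.2 ± 27.1, which stands in the list of leukocyte receptors. Of 21 receptors of leukocytes 11 were in the files and 5 reached 50 CPM. In mast cell-like cells the highest receptors of either list were GPR183, an oxysterol receptor that guides leukocytes, at 272 ± 73.5 CPM, the chemokine receptor CXCR4 at 111 ± 18.1, the nucleotide sugar receptor P2RY14 of the other list at 44.0 and PTGER4 at 35.8 (n = 2). Of 20 effectors of G proteins 11 were in the files, and 6 reached 50 CPM.

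No gene of the 5 lists was called by edgeR between injured and normal samples in pericyte-like, smooth muscle-like, T cell-like, macrophage-like or neutrophil-like cells, with 0 higher and 0 lower in each. With 0.0% of all genes called in 4 of these classes and 0.0221% in the T cell-like cells, this count sets the lists apart from no other genes, and in several cases 0 or 1 gene of a list was tested. In pericyte-like cells 5 alpha subunits, 6 receptors of contractile cells and 7 effectors passed the filter on low counts, with median log2 fold changes of -0.038, -0.014 and -0.16, beside -0.0098 over all genes tested there. In smooth muscle-like cells 4 receptors of contractile cells had a median of 0.44, and in T cell-like cells 3 alpha subunits one of -0.71, beside -0.0063 and 0.00025 over all genes. In macrophage-like cells 6 receptors of leukocytes had a median of 0.26, beside -0.0012 over all genes.

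The genes whose level followed a member most closely were taken over the 41 class and sample sums, among 3278 genes with a symbol and at least 50 CPM in a class. For RGS1 they were GPR183 (Pearson r = 0.97), WAS, an actin regulator of blood cells (0.92), HCLS1, a cytoskeletal adaptor of blood cells (0.92), ST3GAL5, a ganglioside synthase (0.92), and PAF1, a transcription elongation factor (0.91). All but PAF1, which was highest in macrophage-like cells, were highest in mast cell-like cells. For RGS4 they were FOXS1, a forkhead transcription factor (0.94), COX4I2 (0.93), HIGD1B (0.92), HSPB8, a small heat shock protein (0.92), and KLHL23 (0.91). For RGS5 they were COX4I2 (0.98), HIGD1B (0.98), IBSP (0.97), FHL5, a LIM domain protein (0.96), and KLHL23 (0.96). COX4I2, HIGD1B and KLHL23 stood in both of these lists. COX4I2 and HIGD1B were markers used to name the pericyte-like cells, and the sums share libraries, so that these correlations are descriptions without a test.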

How the data were processed

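The authors deposited UMI counts of each gene in each barcode, made with Cell Ranger 6.0.1 from Chromium 3′ v3 libraries and not normalized. The genome release and annotation are not given in the sources used here. The study's limits (at least 500 UMIs and 200 genes, at most 15% mitochondrial UMIs over 13 genes) were applied here and kept more cells than the study states. Median depth of the kept cells was 6755 and 7186 UMIs in Injury_1 and Injury_2 and 4813.5 and 6759 UMIs in Normal_1 and Normal_2, and shallow sums carry more counting error.

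Cells were normalized, integrated by CCA and clustered in Seurat 5.3.0 (R 4.3.3) with 2000 variable genes, 30 components, resolution 0.8 and no RGS gene. Clusters were named from fixed markers by a score. The scoring rule was set after the clusters had been seen. Doublets were scored by Scrublet in scanpy 1.11.5 and were kept, with an alternative without the top 5% of each sample.

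UMI counts were summed per sample and class and tested with edgeR 4.0.16 (filterByExpr, TMM, quasi-likelihood, Benjamini-Hochberg, threshold 0.05), without a block. DESeq2 1.42.0, other scalings, filters, limits on cells, clusterings, a replicate block and each sample left out were alternatives. The edgeR script was tested on simulated data. Levels between classes used log2(CPM + 10) over samples with at least 20 cells, and two-sided exact permutation tests. Thinned shares are expectations over all draws of 1000 UMIs. Tools were Python 3.11.15, numpy 2.4.6, scipy 1.17.1, pandas 2.3.3 and matplotlib 3.10.9.

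The members and the gene lists were chosen with earlier results of these data known. Named genes were the members, every other RGS gene of at least 50 CPM in a class, every alpha subunit present, up to 4 receptors in the class where a member was highest, and the 5 genes most alike each member. Genes leading a cluster are named beside it. The clusters described, among them cluster 5, were chosen after their values had been seen.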

Additional observations from a re-analysis of the deposited data

Results flagged for a closer look

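Barcodes outside the limits on UMIs, genes and mitochondrial share entered no comparison of classes, and in the normal samples they held more of the RGS4 and RGS5 UMIs than in the injured ones. For RGS4 the mean was 33.3% in the normal samples (26.5% and 40.1%) against 4.57% in the injured ones (6.27% and 2.87%). For RGS5 it was 34.8% (29.0% and 40.6%) against 7.004% (7.501% and 6.51%). The pericyte marker HIGD1B had 35.04% against 7.79% on average, and RGS1 had 6.30% against 3.28%. The pericyte marker ABCC9 had 25.6% (15.5% and 35.6%) against 9.93%. Both normal samples lay above both injured ones in each case, and their part in the comparisons within classes was not tested beyond the alternative without the limit.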

How the results depend on the processing

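Over 13 fold changes of the 3 genes there were 155 alternative values, of which 135 kept their direction and their side of the threshold, 16 changed sign and 4 passed it. Among the log2 fold changes with each sample left out, RGS1 ran from -1.60 to 0.34 in T cell-like and from -1.40 to 2.51 in neutrophil-like cells, RGS4 from -0.61 to 0.19 in pericyte-like and from -1.03 to -0.14 in smooth muscle-like cells, and RGS5 from -0.62 to 1.21 in smooth muscle-like cells. Over all cells they ran from 1.21 to 2.64 for RGS1, from -0.25 to 0.46 for RGS4 and from -0.21 to 0.49 for RGS5. The difference of RGS1 between macrophage-like and T cell-like cells ran from -0.58 to 0.072. With a mitochondrial limit of 10% RGS4 gave 0.37 in pericyte-like and 1.28 in smooth muscle-like cells. RGS5 in smooth muscle-like cells gave -0.016 without the highest doublet scores, -0.38 without integration and -0.38 without a mitochondrial limit, an alternative chosen after seeing the data. With all barcodes RGS4 and RGS5 over all cells gave -0.48 and -0.35, and with DESeq2 RGS1 gave 1.76. Without thinning the share of cells with RGS4 differed by -2.20 points in pericyte-like and by 2.91 in smooth muscle-like cells. At resolution 0.3 RGS4 was higher in pericyte-like than in smooth muscle-like cells by 1.61. The cause of these changes was not tested. Neutrophil-like cells could not be tested at that resolution or without integration.

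The replicate numbers name the rabbits and pair nothing by the labels. Differences between same-numbered samples had a correlation of 0.228 over 10475 genes, from 2 pairs only. With the replicate block the log2 fold change of RGS1 was -0.74 in T cell-like, 0.25 in macrophage-like and 0.01 in neutrophil-like cells, that of RGS4 -0.22 in pericyte-like and -0.61 in smooth muscle-like cells, that of RGS5 -0.37 and 0.28, and over all cells 1.90, 0.09 and 0.12. The block changed no call of the 3 genes, while the genes called in pericyte-like, smooth muscle-like, T cell-like, macrophage-like, neutrophil-like, endothelial-like, fibroblast-like and epithelial-like cells and over all cells were 7, 1, 29, 55, 14, 5, 248, 58 and 276. Over all alternatives these counts reached 466, 386, 357, 440, 47, 50, 563, 967 and 425, against 0, 0, 1, 0, 0, 0, 0, 117 and 1 as reported. Depth limits the low levels, since a normal sample held as few as 100 T cell-like or 25 neutrophil-like cells.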

Other observations

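Cluster 18 (163 cells), led by the cell division genes ANLN, DIAPH3 and KNL1, stayed unnamed. RGS4 stood there at 223, 228, 77.2 and 1.86 CPM in Injury_1, Injury_2, Normal_1 and Normal_2, and RGS5 at 145, 189, 139 and 24.2 CPM. RGS4 was found in 29 of its cells, of which 79.3% carried a UMI of the pericyte markers HIGD1B or ABCC9, against 6.72% of the cells without it. RGS5 was found in 25 cells, of which 88.0% carried such a UMI, against 7.25% of the others. Of the cells with RGS4, 10.3% were among the 5% with the highest doublet scores of their sample, and 17.9% of those without.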
